A study of Mus musculus with 9 samples.

Results

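The genes described here are 10 genes of the adherens junction, taken by name from the 55228 genes of the count table. They are the cadherins Cdh1, Cdh2, Cdh3, Cdh5 and Cdh11, the catenins Ctnna1, Ctnnb1, Ctnnd1 and Jup, and the adhesion molecule Epcam. RNA was sequenced from HC11, a mouse mammary epithelial line that came from a BALB/c mouse, and from 2 lines made from it by CRISPR editing of Vangl2, a membrane protein of planar cell polarity. GEO's labels call these lines knockout 1 and knockout 2, the paper calls them KD1 and KD2, and each is 1 clone. A difference between clones other than the edit therefore cannot be told apart from the edit. Each line, the unedited parent (WT) included, was grown as 3 cultures with no treatment, in RPMI-1640 that held epidermal growth factor (EGF) at 10 ng/mL, insulin at 5 µg/mL and FBS at 10%, and polyA RNA was read. The p-values measure the spread between these cultures. Total counts per culture were 20030410, 25505223 and 20944890 in WT, 27896032, 26542868 and 25514438 in KD1, and 23601785, 28360592 and 19231428 in KD2.

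Classical cadherins are transmembrane proteins that bind the same cadherin on the neighbouring cell. Inside the cell, beta-catenin (Ctnnb1) or plakoglobin (Jup) sits on the cadherin tail and binds alpha-catenin (Ctnna1), which links to actin, while p120-catenin (Ctnnd1) binds nearer the membrane and holds the cadherin at the surface. In the mammary gland, E-cadherin (Cdh1) joins luminal cells, P-cadherin (Cdh3) marks the basal layer, and N-cadherin (Cdh2), VE-cadherin (Cdh5) and cadherin 11 (Cdh11) are known mainly from neural and mesenchymal cells, endothelium and mesenchyme. Beta-catenin is also the coactivator of TCF transcription factors in Wnt signalling.

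The cultures of a line were not equally alike. Chi-square per degree of freedom between replicate counts was 1.42 to 1.91 for the pairs of KD1 cultures and 1.84 for KD2 replicates 1 and 2, but 19.6 and 24.9 for the pairs with KD2 replicate 3. In WT it was 3.67 for replicates 2 and 3, and 14.5 and 11.9 for the pairs with replicate 1. KD2 replicate 3 and WT replicate 1 thus stood apart from the other cultures of their lines, and where leaving out either changed a test printed below, the value without it is given.

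The targeted gene was read at low depth. Vangl2 had 66, 99 and 86 counts in WT, 75, 48 and 69 in KD1, and 90, 118 and 90 in KD2. As CPM, counts relative to library sizes scaled by TMM, every KD1 culture was below every WT culture, and KD2 overlapped WT. Its log2 fold change was −0.63 ± 0.17 (SE, n = 3 against 3, edgeR adjusted p = 0.00581) in KD1 against WT, and 0.05 ± 0.16 (edgeR adjusted p = 0.810) in KD2 against WT. The edit adds stop codons, so a transcript can still be counted and its level does not check the edit. The paper checked the protein by immunoblot, and reports almost none in KD1 and a strongly reduced amount in KD2.

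In KD1, N-cadherin RNA was nearly gone, and the RNAs of E-cadherin, P-cadherin, Ctnnb1, Ctnnd1, Jup and Epcam were modestly higher than in WT. In KD2, N-cadherin RNA was 6.89-fold higher than in WT and P-cadherin RNA 7.08-fold lower. E-cadherin, Jup and Epcam were lower in KD2 by less than 2-fold, and Ctnna1 and Ctnnb1 were higher by less than 2-fold. Below, rose and fell are used for an adjusted p under 0.05 by the quasi-likelihood test of edgeR, adjusted by Benjamini and Hochberg's method over all 15253 genes tested, and a gene is counted as called when the change was also over 2-fold. In bulk RNA, fewer cells that express a gene and less of its RNA per cell cannot be told apart.

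Of the 10 genes, 8 had enough counts to be tested, and Cdh5 and Cdh11 did not. In KD1 against WT, 6 rose and 1, Cdh2, fell, where 26.9% of all genes tested rose and 30.0% fell. By the 2-fold rule 0 were called higher and 1 lower by edgeR, beside 9.34% and 7.49% of all genes. DESeq2 also called 0 higher, beside 9.34% of all genes, and 8 of the 8 had an unadjusted p under 0.05 by edgeR, beside 61.3%. In KD2 against WT, 3 rose (Cdh2, Ctnna1, Ctnnb1) and 4 fell (Cdh1, Cdh3, Jup, Epcam), beside 34.0% and 33.3% of all genes. Called were 1 higher (Cdh2) and 1 lower (Cdh3), beside 14.5% and 6.71%. The median log2 fold change of the 8 tested genes was 0.30 in KD1 and −0.12 in KD2, where that of all genes was −0.03 and 0.01. Both comparisons use the same WT cultures.

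The 2 edited lines were also set directly against each other. In KD2 against KD1, 2 genes rose (Cdh2, Ctnna1) and 5 fell (Cdh1, Cdh3, Ctnnd1, Jup, Epcam), beside 34.8% and 33.0% of all genes. Called were 1 higher (Cdh2) and 3 lower (Cdh1, Cdh3, Jup), beside 14.7% and 8.58%. Cdh1 and Jup lay just past 2-fold, and with scaling by library size only, 1 gene was called lower. That scaling raised the median of all genes by 0.11 in KD2 against WT and by 0.13 in KD2 against KD1.

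Levels can be compared between genes as RPKM, the CPM divided by the kilobases of merged exon, and the order depends on the length used. In WT, mean RPKM was 251 (SD 7.07, n = 3) for Epcam and 151 (SD 7.34) for Cdh1, then 118 for both Jup (SD 11.1) and Ctnnb1 (SD 8.75), whose cultures overlapped. Ctnna1 at 45.5 RPKM, Cdh3 at 22.1, Ctnnd1 at 11.3 and Cdh2 at 2.99 followed in that order without overlap. The place of Ctnnd1 is uncertain, since 61.2% of its exon bases are shared with another gene. Divided by the 2837 unshared bases alone, its counts give 29.2 RPKM in WT, 55.4 in KD1 and 31.9 in KD2, above Cdh3 in WT, Ctnna1 in KD1 and Cdh2 in KD2. Cdh11 and Cdh5 were last at 0.0208 and 0.00387 RPKM and overlapped. KD1 kept this order from Epcam to Ctnnd1, with mean RPKM of 310 (SD 9.49) for Epcam and 196 (SD 1.99) for Cdh1. Last there were Cdh5, Cdh2 and Cdh11 at 0.0525, 0.0370 and 0.0347 RPKM. The cultures of Cdh2 overlapped those of both others, while every KD1 culture was higher for Cdh5 than any was for Cdh11. In KD2 the order by RPKM was Epcam (195, SD 24.1), Ctnnb1 (149, SD 5.08), Cdh1 (93.6, SD 2.00), Jup (76.2, SD 7.75), Ctnna1 (59.1), Cdh2 (20.6), Ctnnd1 (12.4), Cdh3 (3.14), Cdh5 (0.161) and Cdh11 (0.00671). Neighbours in the KD2 order did not overlap, and Cdh2 stood above Cdh3 there.

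Per kilobase of the longest annotated transcript, the order of the upper genes was different. In WT it was Epcam (270.2), Jup (237), Ctnnb1 (169) and Cdh1 (156) in CPM per kilobase of that transcript, and Ctnnb1 overlapped Cdh1. KD1 had the same order, with Epcam at 334, Jup at 319, Ctnnb1 at 207 and Cdh1 at 202 on that scale, where Jup overlapped Epcam and Ctnnb1 overlapped Cdh1. In KD2, Ctnnb1 (213) and Epcam (210.0) overlapped at the top, followed by Jup (153), Ctnna1 (102) and Cdh1 (96.6). By both lengths Cdh2 stood below Cdh3 in WT and KD1 and above it in KD2, and the places of Jup, Ctnnb1 and Cdh1 among each other rest on the length chosen.

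**Figure D1:**
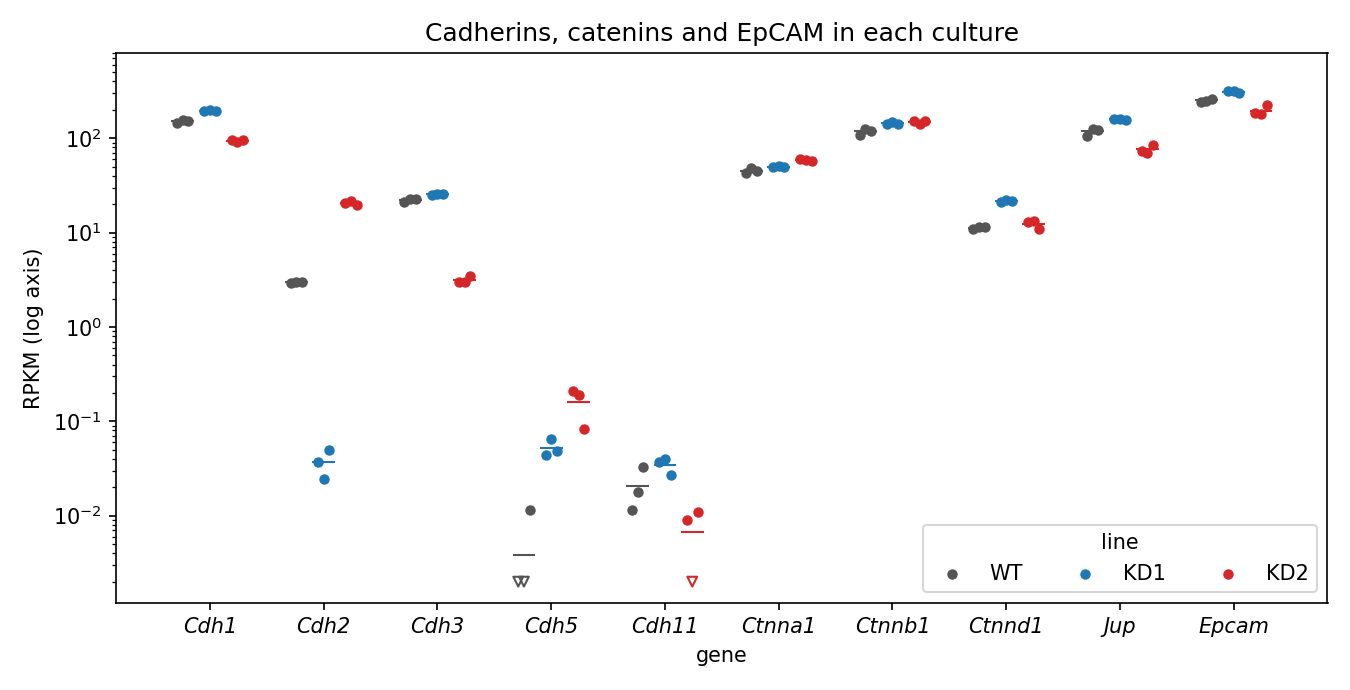
Level of each of the 10 genes in RPKM (log axis) in the 9 cultures. Points are cultures, bars mark the mean of 3 cultures, and open triangles at the lower edge are cultures with 0 counts. Cdh2 spans from 0.0370 RPKM in KD1 to 20.6 in KD2, while Ctnna1 lies between 45.5 and 59.1 in the means of the 3 lines.

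Cdh2 (chr18:16588877-16809246, minus strand, GRCm38) encodes N-cadherin. It had 463, 606 and 499 counts in WT, 8, 5 and 10 in KD1, and 4095, 5246 and 3218 in KD2. As CPM, these were 23.7, 24.2 and 24.4 in WT, 0.295, 0.197 and 0.403 in KD1, and 166, 175 and 158 in KD2. The 3 lines were fully separate, with KD1 lowest and KD2 highest. Against WT, Cdh2 fell in KD1 with a log2 fold change of −6.32 ± 0.14 (SE, edgeR adjusted p = 1.45e-13), which is 79.7-fold. In KD2 it rose by 2.79 ± 0.07 (edgeR adjusted p = 1.48e-12). Between the 2 edited lines the log2 fold change was 9.10 ± 0.12 (edgeR adjusted p = 2.32e-15).

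Markers of mesenchymal cells were also low in KD1. The summed CPM of 14 fibroblast and other mesenchymal markers was 465, 553 and 553 in WT, 37.7, 36.2 and 33.4 in KD1, and 1326, 1295 and 1490 in KD2. The sum was lowest in KD1 and highest in KD2, and its being above WT in KD2 rests on Vim. Without Vim, the other 13 markers summed to 351, 395 and 388 CPM in WT, 18.9, 17.9 and 15.7 in KD1, and 275, 275 and 286 in KD2, so that KD1 was again lowest while KD2 lay below WT. Of the 10 markers tested, 7 were called lower in KD1 against WT, beside 7.49% of all genes. In KD2 against WT, 6 were called higher and 1 lower, beside 14.5% and 6.71%. In KD2 against KD1, 9 rose and 8 were called higher, beside 34.8% and 14.7%. Col1a2 had 0 counts and Col3a1 1 count summed over the KD1 cultures, and both were tested through the other lines. They could only count as fallen in KD1 and as risen in KD2 against KD1. The tallies with KD1 are therefore not a test of the markers. The most abundant marker was Vim, the intermediate filament protein vimentin, with 2216, 3947 and 3372 counts in WT, 509, 466 and 439 in KD1, and 26002, 30639 and 24481 in KD2. Its log2 fold change was −2.99 ± 0.12 (edgeR adjusted p = 1.01e-10) in KD1 and 2.91 ± 0.12 (edgeR adjusted p = 1.30e-10) in KD2, both against WT. Lum and Thy1, which mark fibroblasts, were at or under 3 counts in every culture. The part of these markers in the level of Cdh2 was not tested.

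Other cell types were read beside the same cells. Markers of mammary epithelium summed to a mean of 4676 CPM (SD 298) in WT, 5784 (SD 62.0) in KD1 and 2915 (SD 389) in KD2, with the basal keratin Krt5 the most abundant and Krt19 at 0 counts. Neural and glial markers summed to 195 CPM (SD 2.15) in WT, 76.7 (SD 1.83) in KD1 and 318 (SD 36.5) in KD2, led by Map2 and with Sox10 at 0. Adipocyte markers summed to 0.369, 2.65 and 0.383 CPM in WT, KD1 and KD2, led by Fabp4. The summed level of the epithelial markers was highest in KD1 and lowest in KD2, also without Krt5, which overlapped between WT and KD1. Of the 11 epithelial markers tested, 3 rose and 1 fell in KD1, beside 26.9% and 30.0% of all genes, and 2 rose and 4 fell in KD2, beside 34.0% and 33.3%. The part of these markers in the levels of Cdh1, Jup and Epcam was not tested.

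E-cadherin RNA differed less than that of N-cadherin. Cdh1 (chr8:106603351-106670246, plus strand) was at 655, 721 and 699.7 CPM in WT, 895, 906 and 888 in KD1, and 433, 417 and 433 in KD2. No KD1 culture was as low as any WT culture, and no KD2 culture as high. Cdh1 rose in KD1 by a log2 fold change of 0.37 ± 0.05 (edgeR adjusted p = 2.99e-05) and fell in KD2, at −0.69 ± 0.05 (edgeR adjusted p = 5.28e-08). KD2 was lower than KD1 with a log2 fold change of −1.07 ± 0.05 (edgeR adjusted p = 4.27e-10).

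P-cadherin RNA was low in KD2. Cdh3 (chr8:106510891-106557297, plus strand) was at 91.8, 100.4 and 98.6 CPM in WT, 109.6, 113 and 112 in KD1, and 13.0, 13.2 and 15.1 in KD2. The KD2 cultures lay far below the rest, and the KD1 cultures all lay above WT by a small margin. Cdh3 fell in KD2 against WT with a log2 fold change of −2.82 ± 0.07 (edgeR adjusted p = 1.83e-12). In KD1 it rose by 0.20 ± 0.06 (edgeR adjusted p = 0.0129), and without WT replicate 1 this was 0.17 with an edgeR adjusted p of 0.0503. The range of that log2 fold change as each culture was left out was 0.17 to 0.25. Between KD2 and KD1 the log2 fold change was −3.03 ± 0.07 (edgeR adjusted p = 1.77e-13).

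Cdh3 and Cdh1 are neighbours on chromosome 8, on the same strand, with 46054 bp between the end of Cdh3 and the start of Cdh1. The median log2 fold change of the 75 tested genes within 2 Mb of Cdh1 was −0.36 in KD1 and −0.24 in KD2 against WT, close to that of the chromosome, −0.27 and −0.19 over 833 genes. The tested gene between them, Gm10073, had log2 fold changes of 0.19 (edgeR adjusted p = 0.541) in KD1 and −0.03 (edgeR adjusted p = 0.917) in KD2. The nearest tested genes outside the pair are Zfp90 and Tango6. Zfp90 had −0.35 (edgeR adjusted p = 0.00152) in KD1 and 0.03 (edgeR adjusted p = 0.724) in KD2. Tango6 fell in both lines, by −0.48 (edgeR adjusted p = 0.000179) in KD1 and −0.27 (edgeR adjusted p = 0.00906) in KD2. In KD1 the pair rose where Zfp90 and Tango6 fell, and in KD2 the pair fell by more than Tango6, where Zfp90 did not pass the test.

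**Figure D2:**
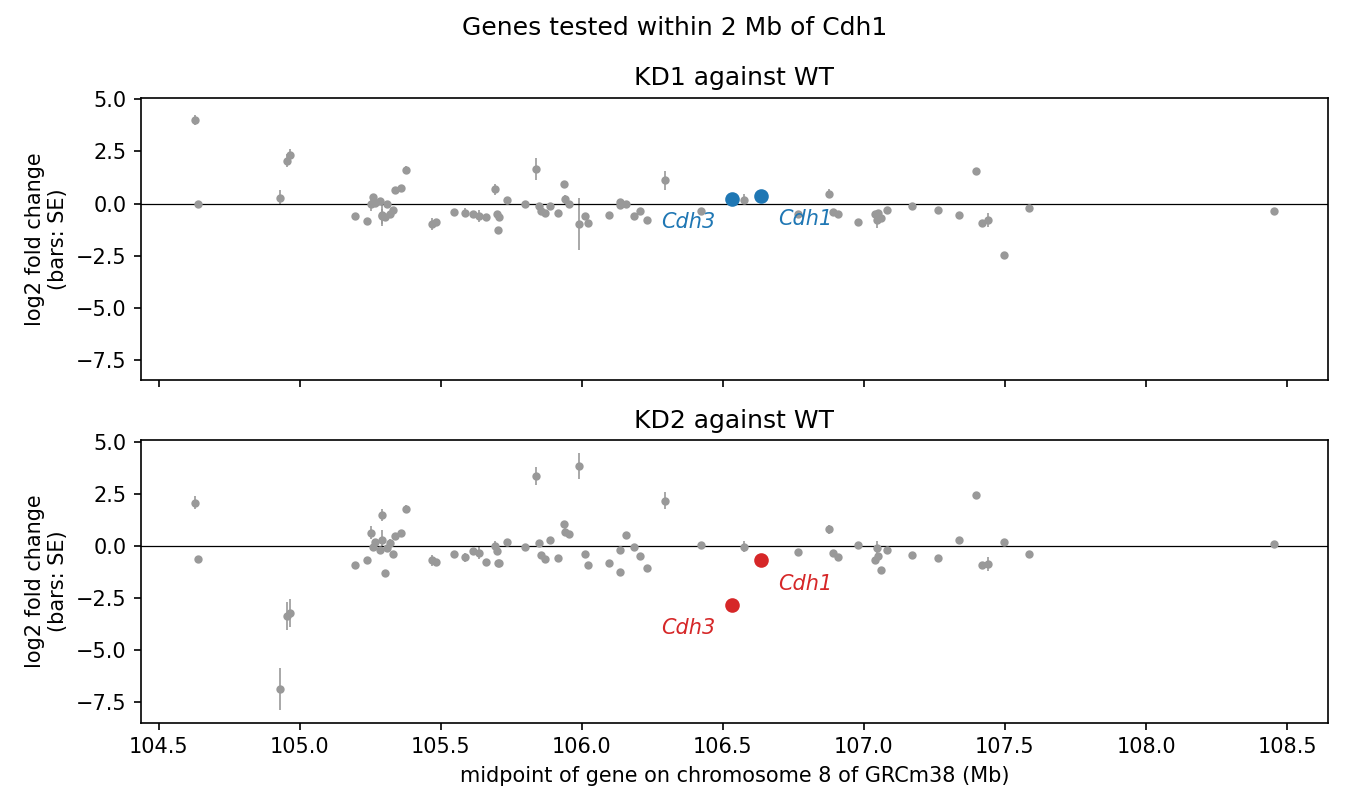
Log2 fold change against WT (bars, SE) of each tested gene within 2 Mb of Cdh1, at its midpoint on chromosome 8 of GRCm38, in KD1 (upper plot) and KD2 (lower plot). Cdh3 lies at −2.82 and Cdh1 at −0.69 in KD2, and at 0.20 and 0.37 in KD1.

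Of the 10 genes, Cdh5 and Cdh11, also on chromosome 8, were close to the detection limit. Cdh5 (chr8:104101625-104144511, plus strand) had 0, 0 and 1 counts in WT, 5, 7 and 5 in KD1, and 22, 24 and 7 in KD2. Every culture of the edited lines was above every WT culture, and KD2 replicate 3 was the lowest of its line. The ratio of KD1 to WT was 14.3 with an exact 95% counting interval of 2.24 to 597, and that of KD2 to WT 45.9 with 7.88 to 1846. These intervals cover counting error only. When every gene with a count was tested, 31678 in all, Cdh5 had log2 fold changes of 3.46 (edgeR adjusted p = 0.000985) in KD1 and 5.06 (edgeR adjusted p = 4.67e-11) in KD2. Endothelial markers summed to 291, 372 and 341 CPM in WT, 459, 461 and 479 in KD1, and 539.6, 531 and 505 in KD2, nearly all of it from Flt1, and without Flt1 the other 14 summed to 3.84, 3.96 and 4.54 in WT, 5.35, 5.98 and 5.69 in KD1, and 3.27, 3.20 and 3.00 in KD2. Of the 15 markers, 8 were at or under 3 counts in every culture, and Emcn and Sox17 at 0. Of them 4 were tested, and 2 rose and 2 fell in each line against WT, beside 26.9% and 30.0% of all genes in KD1 and 34.0% and 33.3% in KD2. Called were 1 higher and 2 lower in each line, beside 9.34% and 7.49% in KD1 and 14.5% and 6.71% in KD2. The endothelial adhesion gene Pecam1 had 39 to 51 counts in WT, 122 to 132 in KD1 and 19 to 28 in KD2, lowest where Cdh5 was highest. The endothelial receptor gene Tek had 1, 1 and 0 counts in WT, 0, 1 and 1 in KD1, and 7, 8 and 2 in KD2, with KD2 replicate 3 lowest of its line as for Cdh5. Its ratio of KD2 to WT was 7.36 (exact 95% counting interval 1.75 to 65.6). Egfl7, a secreted factor of endothelium, had 20 to 25 counts in WT, 3 to 4 in KD1 and 2 to 3 in KD2, and was called lower in both, with a log2 fold change of −2.79 (edgeR adjusted p = 3.06e-06) in KD1 and a ratio of WT to KD2 of 10.9 (exact 95% counting interval 5.00 to 28.1). Egfl7 had enough counts to be tested only through WT, so it could only count as fallen, and it is part of the counts of fallen and called genes above. Pecam1, Tek and Egfl7 were all picked after their values were seen. The part of these markers in the Cdh5 counts was not tested.

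Cdh11 (chr8:102632095-102785642, minus strand) had 2, 4 and 6 counts in WT, 9, 9 and 6 in KD1, and 2, 0 and 2 in KD2. As CPM, KD1 overlapped WT, and KD2 lay below both lines, by a narrow margin from WT. The ratio of KD1 to WT was 1.68 (exact 95% counting interval 0.809 to 3.69), and KD2 was 3.47-fold lower than WT (1.05 to 14.7) and 5.83-fold lower than KD1 (2.00 to 23.1). With every gene with a count tested, KD2 against WT had an edgeR adjusted p of 0.0744 and KD2 against KD1 of 0.00116.

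Set per length, E-cadherin made up most of the cadherin RNA in every line. Cdh1 was 85.7%, 85.9% and 85.7% of the summed RPKM of the 5 cadherins in WT, 88.6%, 88.4% and 88.3% in KD1, and 80.0%, 78.6% and 80.4% in KD2. The lines did not overlap, with KD1 highest and KD2 lowest. The share was 2.69 points higher in KD1 than in WT and differed by −6.11 points in KD2. By a two-sided exact permutation test each gave p = 0.1, also when adjusted over 3 comparisons, the smallest that 3 against 3 cultures allow. Cdh3 held a mean of 12.5% in WT, 11.5% in KD1 and 2.67% in KD2, and Cdh2 held 1.70%, 0.0167% and 17.5%. The size of these shares depends on the length used. Per kilobase of the longest transcript, Cdh1 held a mean of 85.2% in WT, 88.8% in KD1 and 71.97% in KD2, a difference from WT of 3.55 and −13.2 points, and Cdh2 held 2.72%, 0.0271% and 25.6%. By both lengths the second cadherin was Cdh3 in WT and KD1 and Cdh2 in KD2. Summed over the 5 cadherins, RPKM was 176 (SD 8.41) in WT, 221 (SD 2.16) in KD1 and 117 (SD 1.22) in KD2. Per culture, the ratio of Cdh1 to Cdh2 in counts per kilobase was 48.7, 52.5 and 50.6 in WT, 5343, 8124 and 3881 in KD1, and 4.62, 4.21 and 4.83 in KD2. By the longest transcript this ratio was 30.2, 32.5 and 31.4 in WT, 3313, 5036 and 2406 in KD1, and 2.86, 2.61 and 2.99 in KD2. The KD1 ratios rest on 5 to 10 Cdh2 counts per culture.

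**Figure D3:**
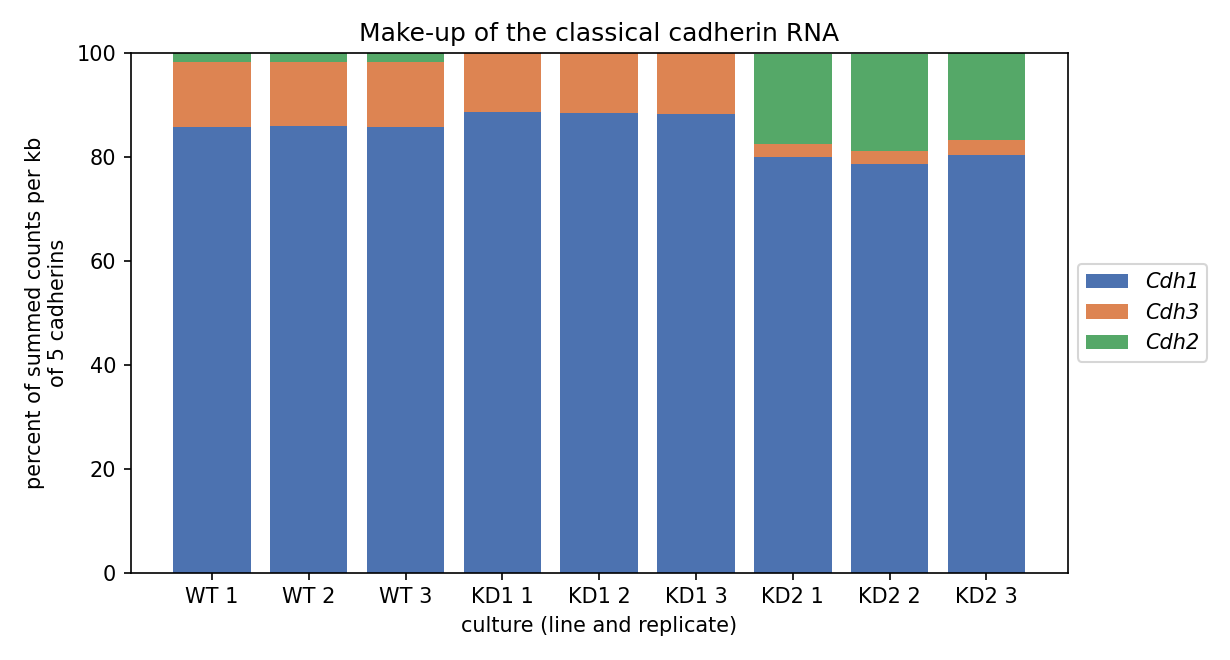
Percent of the summed counts per kilobase of 5 cadherins in each of the 9 cultures, stacked as Cdh1, Cdh3 and Cdh2. Cdh5 and Cdh11 are part of the sum but are not drawn. Cdh2 takes a mean of 17.5% in KD2, 1.70% in WT and 0.0167% in KD1.

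Of 18 other cadherins, 5 were tested. In KD1 all 5 of these fell against WT, beside 30.0% of all genes, and in KD2 2 rose and 3 fell, beside 34.0% and 33.3%. Cdh10 had enough counts to be tested only through WT, so it could only count as fallen. Cdh15 and Cdh19 had few or no counts in KD1 and were tested through the other lines. The tally for KD1 is therefore not a test of the list. Cdh15, M-cadherin of muscle, had 37 to 78 counts in WT, 3 to 6 in KD1 and 794 to 943 in KD2. Like Cdh2, it was lowest in KD1 and highest in KD2, with log2 fold changes against WT of −3.89 ± 0.37 (edgeR adjusted p = 6.46e-07) and 3.78 ± 0.16 (edgeR adjusted p = 2.06e-10). Cdh10 and Cdh19, named after their values were seen, had 19 to 24 and 22 to 34 counts in WT and 0 in every KD1 culture. They were at least 8.68-fold and at least 10.5-fold lower in KD1, against a floor of 3 counts per library.

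Among the catenins, Ctnnb1 (chr9:120929216-120960507, plus strand) rose in both edited lines. It was at 561 to 649 CPM in WT, with the lowest in replicate 1, at 743, 767 and 738 in KD1, and at 785, 743 and 791 in KD2. Both edited lines lay above WT and overlapped each other. The log2 fold change was 0.29 ± 0.06 (edgeR adjusted p = 0.000837) in KD1 and 0.34 ± 0.06 (edgeR adjusted p = 0.000199) in KD2. Without WT replicate 1 these were 0.23 (edgeR adjusted p = 0.00418) and 0.27 (edgeR adjusted p = 0.00113). Between KD2 and KD1 it was 0.05 ± 0.06 (edgeR adjusted p = 0.521), and with scaling by library size only Ctnnb1 passed the test there, at 0.17 (edgeR adjusted p = 0.0194). Exons of Mir7090 on the same strand and of Ulk4 on the other together overlap 15.1% of those of Ctnnb1, and Ulk4 had 85 to 211 counts where Ctnnb1 had 10962 to 22320.

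Plakoglobin, the close relative of beta-catenin that serves both adherens junctions and desmosomes, moved in opposite directions in the edited lines. Jup (chr11:100368958-100397763, minus strand) was at 679, 813 and 789 CPM in WT, 1034, 1035 and 999.8 in KD1, and 471, 453 and 547 in KD2. KD1 was highest and KD2 lowest with no overlap, and WT replicate 1 and KD2 replicate 3 each stood off from the other cultures of their line. Jup rose in KD1 by 0.43 ± 0.08 (edgeR adjusted p = 0.000334) and fell in KD2, at −0.63 ± 0.08 (edgeR adjusted p = 7.50e-06), on the log2 scale. KD2 against KD1 was −1.06 ± 0.08 (edgeR adjusted p = 3.51e-08). Without WT replicate 1, Jup was 0.35 (edgeR adjusted p = 0.00192) in KD1 and −0.71 (edgeR adjusted p = 4.81e-06) in KD2 against WT. Without KD2 replicate 3, Jup in KD2 was −0.69 against WT and −1.14 against KD1.

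The balance of plakoglobin and beta-catenin RNA differed between the lines. Jup was 49.4%, 50.3% and 50.4% of the RPKM of Jup and Ctnnb1 together in WT, 52.9%, 52.1% and 52.2% in KD1, and 32.6%, 33.0% and 35.8% in KD2. The lines did not overlap, and KD2 lay furthest from the rest. The difference from WT was 2.39 points in KD1 and −16.2 points in KD2, each with a two-sided exact permutation p of 0.1, the smallest possible, and 2.31 and −16.7 points per kilobase of the longest transcript. The sum of both in RPKM was 236 (SD 19.9) in WT, 303 (SD 5.56) in KD1 and 225 (SD 12.0) in KD2, and its KD2 cultures overlapped those of WT.

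Ctnnd1, which encodes p120-catenin (chr2:84600071-84650765, minus strand), was at 80.3, 84.6 and 83.3 CPM in WT, 154, 161 and 156 in KD1, and 95.9, 96.1 and 79.4 in KD2. All KD1 cultures were far above the rest, and in KD2 replicate 3 lay below WT while the other cultures lay above it. Ctnnd1 rose in KD1 by 0.92 ± 0.07 (edgeR adjusted p = 9.08e-08), or 1.90-fold. In KD2 against WT the log2 fold change was 0.13 ± 0.07 (edgeR adjusted p = 0.130), and without KD2 replicate 3 it was 0.24 with an edgeR adjusted p of 0.000136. As each culture was left out in turn this log2 fold change ranged from 0.09 to 0.24. It also passed with all cultures when scaled by library size only (0.24, edgeR adjusted p = 0.00920) and with a minimum of 10 counts per culture (0.20, edgeR adjusted p = 0.0279). KD2 was lower than KD1, at −0.79 ± 0.07 (edgeR adjusted p = 2.62e-07). Exons of Gm28635, on the same strand, cover 61.2% of the Ctnnd1 exons, and Gm28635 had 0 counts in every culture. How the authors' counting treated reads in the shared stretch is not given, so the level of Ctnnd1 per length is uncertain.

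Alpha-catenin RNA was highest in KD2. Ctnna1 was at 277, 309 and 291 CPM in WT, 317, 327 and 320.4 in KD1, and 391, 381 and 368 in KD2. Each KD2 culture was above each KD1 culture, and each of these above WT. The log2 fold change was 0.14 ± 0.06 (edgeR adjusted p = 0.0512) in KD1, and Ctnna1 rose in KD2 by 0.38 ± 0.06 (edgeR adjusted p = 4.03e-05) against WT and by 0.24 ± 0.06 (edgeR adjusted p = 0.00159) against KD1. The KD1 value passed the test without KD2 replicate 3 (0.16, edgeR adjusted p = 0.00314) and without WT replicate 2 (0.20, edgeR adjusted p = 0.0151), within a range of 0.10 to 0.20 over the cultures left out. It also passed with all cultures by the DESeq2 Wald test (0.16, DESeq2 adjusted p = 0.0110), with DESeq2 size factors, with a minimum of 10 counts per culture, with thinned counts and with only the 6 cultures compared. Whether Ctnna1 passed in KD1 thus depended on the method as well as on single cultures.

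Relatives of the catenins were fixed as a list of 7, of which 5 were tested. In KD1, 1 rose and 4 fell against WT, beside 26.9% and 30.0% of all genes, and in KD2, 3 rose and 2 fell, beside 34.0% and 33.3%. Ctnnd2 had enough counts to be tested only through WT, so in both lines it could only count as fallen. Ctnnbip1, an inhibitor that keeps beta-catenin from TCF factors, had 1541 to 2493 counts in WT, 975 to 1060 in KD1 and 1506 to 2022 in KD2. It fell in KD1 with a log2 fold change of −1.22 ± 0.08 (edgeR adjusted p = 2.50e-08), and in KD2 with −0.42 ± 0.08 (edgeR adjusted p = 0.000498), and Gm13066 on the other strand overlaps 25.8% of its exon bases. Ctnnd2, the neural relative of p120-catenin, named after its values were seen, had 21 to 25 counts in WT, 0 or 1 in KD1 and 0 in KD2. WT was 41.6-fold above KD1 (exact 95% counting interval 11.1 to 350), and KD2 was at least 8.92-fold lower than WT against a floor of 3 counts per library.

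Epcam (chr17:87635979-87651129, plus strand) is an epithelial membrane glycoprotein that is not a cadherin but lies at the same cell contacts. It was at 537, 549 and 568 CPM in WT, 687, 699 and 658 in KD1, and 404, 392 and 489 in KD2. KD1 lay above WT and KD2 below it, with KD2 replicate 3 nearest to WT. Epcam rose in KD1 by 0.31 ± 0.07 (edgeR adjusted p = 0.00295) and fell in KD2, at −0.36 ± 0.07 (edgeR adjusted p = 0.000635), on the log2 scale. KD2 against KD1 was −0.67 ± 0.07 (edgeR adjusted p = 2.24e-06). Without KD2 replicate 3, the value in KD2 against WT was −0.44 and that against KD1 −0.77.

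Jup and Epcam both rose in KD1 and fell in KD2, as Cdh1 did, and their promoters are shown for the E-box bound by the Snai and Zeb repressors of Cdh1. RefSeq promoters (build GRCm38.p6, from 250 bases before to 50 bases after the start) were matched by symbol for 4 of the 10 genes, Ctnnb1, Ctnnd1, Jup and Epcam. The letters searched were CAGGTG and, for the other strand, CACCTG, and 20.2% of 32851 promoters of this length held either. The Epcam promoter (chr17:87635729-87636028, plus strand) held 2 matches, in capitals, which begin 187 and 19 bases before the start. The Jup promoter (chr11:100397741-100398040, minus strand) held 0, as did both entries each of Ctnnb1 and Ctnnd1. A match of letters does not show binding.
Epcam: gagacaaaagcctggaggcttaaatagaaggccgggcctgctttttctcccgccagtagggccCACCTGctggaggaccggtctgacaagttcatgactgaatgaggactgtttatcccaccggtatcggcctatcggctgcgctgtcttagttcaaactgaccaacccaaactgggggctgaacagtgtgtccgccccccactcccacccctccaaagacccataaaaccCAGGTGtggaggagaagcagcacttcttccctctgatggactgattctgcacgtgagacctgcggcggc
Jup: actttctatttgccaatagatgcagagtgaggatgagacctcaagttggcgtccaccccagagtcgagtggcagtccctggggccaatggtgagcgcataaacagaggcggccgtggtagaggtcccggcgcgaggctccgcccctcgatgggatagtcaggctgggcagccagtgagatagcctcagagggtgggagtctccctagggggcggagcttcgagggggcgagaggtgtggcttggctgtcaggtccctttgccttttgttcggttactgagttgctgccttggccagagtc

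Genes known to regulate Cdh1 transcription, together with the epithelial splicing factors Esrp1 and Esrp2, were fixed as a list of 15. Of these, 14 were tested, and the tallies and medians include both splicing factors. In KD1, 2 rose and 9 fell against WT, beside 26.9% and 30.0% of all genes, and in KD2, 3 rose and 9 fell, beside 34.0% and 33.3%. The medians were −0.35 and −0.94. The repressor Snai1 had 156 to 366 counts in WT, 89 to 94 in KD1 and 685 to 792 in KD2. Its log2 fold change was −1.72 ± 0.21 (edgeR adjusted p = 8.37e-06) in KD1 and 1.37 ± 0.17 (edgeR adjusted p = 7.75e-06) in KD2. The repressor Zeb1 had 24 to 33 counts in WT, 32 to 36 in KD1 and 530 to 955 in KD2. Zeb1 rose in KD2 by 4.54 ± 0.13 (edgeR adjusted p = 4.56e-12), and its relative Zeb2 by 1.96 ± 0.13 (edgeR adjusted p = 1.26e-08). Other repressors of Cdh1 in the list went the other way in KD2. Snai2, named after its values were seen, had 1115 to 1250 counts in WT, 1118 to 1204 in KD1 and 536 to 965 in KD2, and fell in KD2, at −0.88 ± 0.08 (edgeR adjusted p = 4.88e-07). Twist1, also named after its values were seen, fell in KD2, at −1.23 ± 0.14 (edgeR adjusted p = 4.08e-06).

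Among regulators of the epithelial state, Ovol2, a repressor of Zeb1, fell in both lines, at −1.09 ± 0.09 (edgeR adjusted p = 2.42e-07) in KD1 and −1.14 ± 0.09 (edgeR adjusted p = 1.41e-07) in KD2. Its relative Ovol1 had 196 to 245 counts in WT, 426 to 557 in KD1 and 89 to 120 in KD2. It fell in KD2 with −1.29 ± 0.11 (edgeR adjusted p = 1.50e-07) and rose in KD1 by 0.90 ± 0.09 (edgeR adjusted p = 1.48e-06), and part of its exons overlaps genes on the other strand. The splicing factor of epithelial isoforms Esrp1 fell in KD2, at −1.28 ± 0.07 (edgeR adjusted p = 1.24e-09). Elf3, an epithelial ETS factor, had 204 to 249 counts in WT, 665 to 765 in KD1 and 203 to 239 in KD2, and rose in KD1 by 1.41 ± 0.09 (edgeR adjusted p = 1.07e-08). In KD2, 7 genes of the list were called lower against WT, beside 6.71% of all genes, and besides Ovol1, Ovol2 and Esrp1 these were the repressor Twist1 and Grhl1, Grhl2 and Esrp2, named after their values were seen.

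The adherens junction partners, a list of 22 with 21 tested, hold the nectins and the actin linkers. In KD1, 14 rose and 4 fell against WT, beside 26.9% and 30.0% of all genes, and in KD2, 11 rose and 7 fell, beside 34.0% and 33.3%. The medians were 0.30 and 0.18. Actn1, an actin crosslinker that binds alpha-catenin, had 6385 to 9285 counts in WT, 20274 to 22124 in KD1 and 15996 to 22272 in KD2. It rose in both lines, by 1.22 ± 0.06 (edgeR adjusted p = 3.29e-10) in KD1 and 1.12 ± 0.06 (edgeR adjusted p = 1.13e-09) in KD2. Camsap3, which anchors microtubules at the junction, fell in both, at −1.32 ± 0.10 (edgeR adjusted p = 4.45e-08) and −1.09 ± 0.10 (edgeR adjusted p = 2.45e-07). Zyx, the actin-binding protein zyxin, had 4589 to 5738 counts in WT and 14597 to 18741 in KD2, where it rose by 1.51 ± 0.06 (edgeR adjusted p = 1.27e-10). Nectin1, an adhesion molecule that forms contacts before the cadherins, rose in KD1 by 0.72 ± 0.08 (edgeR adjusted p = 3.01e-06) and fell in KD2, at −1.19 ± 0.08 (edgeR adjusted p = 2.33e-08).

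Desmosomes share Jup with the adherens junction and join keratin filaments. Of 16 genes, 11 were tested, and in KD1 7 rose and 2 fell against WT, beside 26.9% and 30.0% of all genes. In KD2, 2 rose and 8 fell, beside 34.0% and 33.3%. The medians were 0.36 and −0.27. The desmosomal cadherin Dsc2 had 1168 to 1561 counts in WT, 4296 to 4662 in KD1 and 427 to 795 in KD2. Its lines did not overlap, and it rose in KD1 by 1.53 ± 0.08 (edgeR adjusted p = 7.06e-10) and fell in KD2, at −1.28 ± 0.08 (edgeR adjusted p = 8.82e-09). Dsg3, the desmoglein of basal epithelium, fell in KD2, at −1.64 ± 0.07 (edgeR adjusted p = 2.96e-10), and so did the plaque protein Pkp3, at −1.50 ± 0.08 (edgeR adjusted p = 2.26e-09). In KD1 their log2 fold changes were −0.13 (edgeR adjusted p = 0.119) and 0.02 (edgeR adjusted p = 0.854). The Dsg3 value in KD1 passed the test with only WT and KD1 fitted, at −0.09 (edgeR adjusted p = 0.0355), and without KD2 replicate 3, at −0.11 (edgeR adjusted p = 0.00559), within −0.14 to −0.11 over the cultures left out. In KD2, 5 genes were called lower, beside 6.71% of all genes, the others being Dsp, which ties the plaque to keratin, and Dsg1b, which shares sequence with its paralogs, both named after their values were seen. Dsg1b had 4 counts summed over the KD2 cultures and 200 over those of WT. It was tested through WT and KD1, so in KD2 it could only count as fallen. In KD1, 1 gene was called lower, beside 7.49% of all genes. This was Dsg1b, with a log2 fold change of −1.34, and the call was lost without WT replicate 2. Leaving out single cultures gave 1 to 3 genes called higher in KD1, beside 9.34% of all genes.

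**Figure D4:**
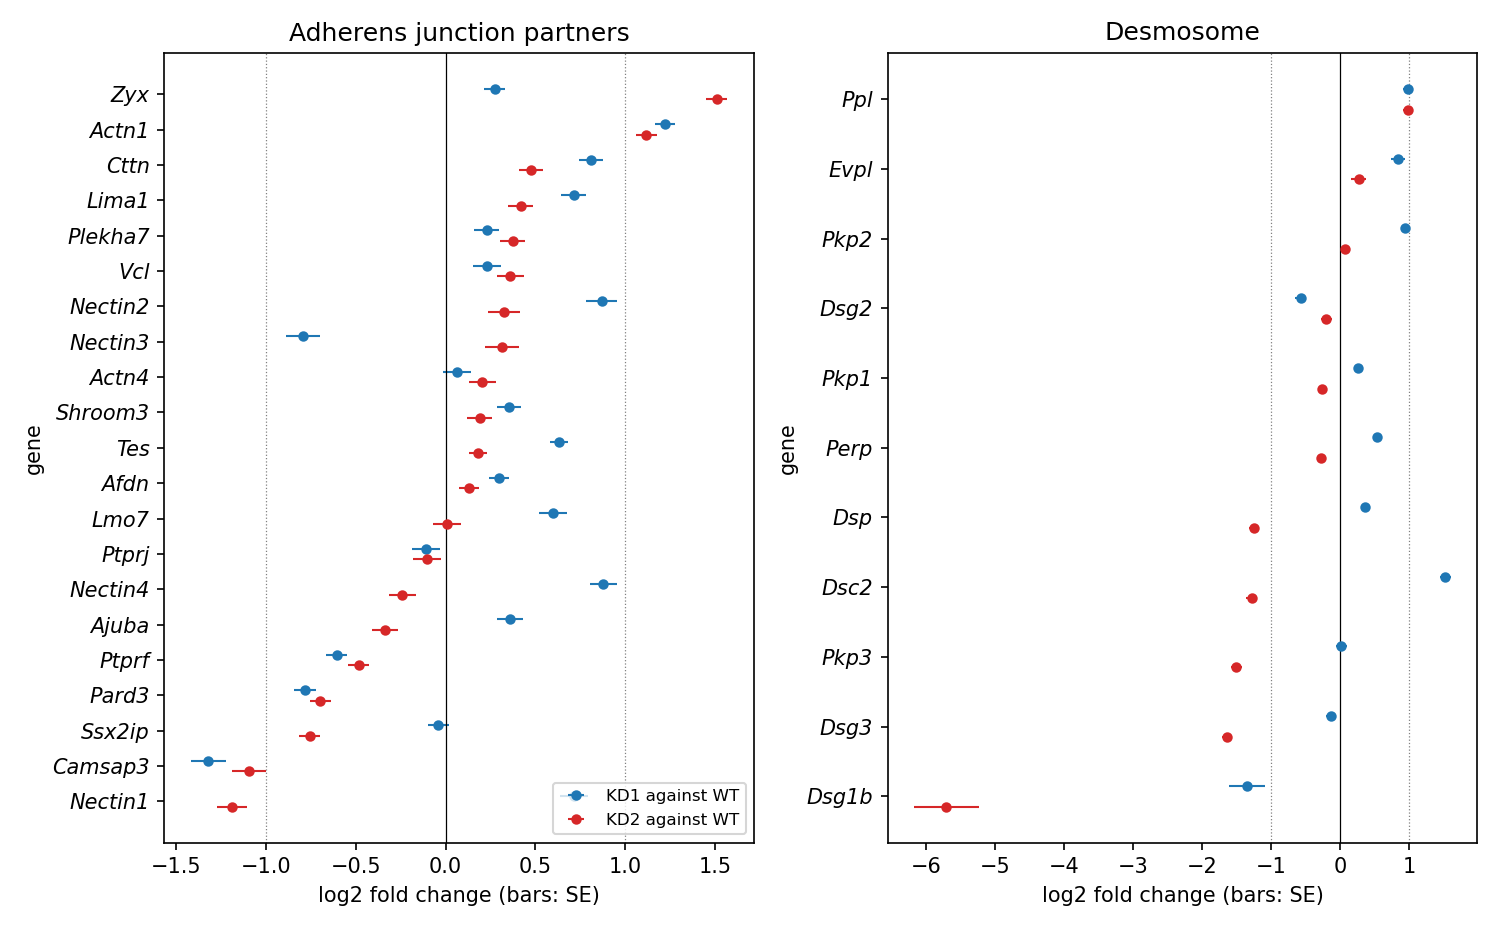
Log2 fold change against WT (points, with bars for SE) of the 21 tested adherens junction partners (left) and the 11 tested desmosome genes (right) in KD1 (blue) and KD2 (red), on axes of different range. Dotted lines mark a change of 1 on the log2 scale, and the desmosome genes have a median of 0.36 in KD1 and −0.27 in KD2.

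Partners and proteases of EpCAM form a list of 11, with 10 tested. In KD1, 8 rose against WT, beside 26.9% of all genes, and in KD2, 2 rose and 7 fell, beside 34.0% and 33.3%. The medians were 0.41 and −0.35. The tight junction protein Cldn4 had 440 to 512 counts in WT, 15562 to 17272 in KD1 and 441 to 519 in KD2. It rose in KD1 by 4.85 ± 0.09 (edgeR adjusted p = 6.28e-14), and in KD2 its log2 fold change was −0.21 ± 0.09 (edgeR adjusted p = 0.0563). The KD2 value passed the test when every gene with a count was tested, at −0.24 (edgeR adjusted p = 0.0111), and without KD2 replicate 3, at −0.30 (edgeR adjusted p = 0.000582), within −0.30 to −0.14 over the cultures left out. The hyaluronan receptor Cd44 rose in KD1 by 1.41 ± 0.06 (edgeR adjusted p = 2.68e-10) and fell in KD2, at −0.47 ± 0.06 (edgeR adjusted p = 1.81e-05). Cldn7, which binds EpCAM directly and was named after its values were seen, had 15 to 19 counts in WT, 17 to 24 in KD1 and 2 to 8 in KD2. It was tested through WT and KD1, so in KD2 it could only count as fallen.

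Proteases and trafficking genes that cleave or turn over cadherins were a list of 11. All 11 were tested, and 3 rose in KD1, beside 26.9% of all genes, while in KD2 6 rose and 2 fell against WT, beside 34.0% and 33.3%. Their log2 fold changes lay between −0.20 and 0.94 in KD1 and between −0.49 and 0.79 in KD2.

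The complex that marks cytoplasmic beta-catenin for destruction was listed with 10 genes, of which 9 were tested. In KD1, 2 rose and 4 fell against WT, beside 26.9% and 30.0% of all genes, and in KD2, 1 rose and 6 fell, beside 34.0% and 33.3%. Apc2, a relative of the scaffold Apc, had 11 to 24 counts in WT, 108 to 122 in KD1 and 102 to 147 in KD2. It rose in both lines, by 2.56 ± 0.22 (edgeR adjusted p = 2.28e-07) and 2.77 ± 0.22 (edgeR adjusted p = 7.66e-08). Amer1, a membrane-bound partner of Apc, fell in KD2, at −1.19 ± 0.07 (edgeR adjusted p = 5.72e-09).

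Target genes of beta-catenin and TCF were a list of 15, of which 9 were tested. In KD1, 2 rose and 5 fell against WT, where 26.9% of all genes rose and 30.0% fell, while in KD2 9 fell, where 33.3% of all genes fell, with medians of −0.70 and −1.10. Nkd2, a feedback inhibitor of Wnt signalling, had 7165 to 10532 counts in WT, 455 to 504 in KD1 and 1463 to 1912 in KD2. It fell in KD1, at −4.43 ± 0.08 (edgeR adjusted p = 3.12e-14), and in KD2, at −2.58 ± 0.07 (edgeR adjusted p = 3.33e-12). Tcf7, itself a TCF factor, fell in both lines, at −3.07 ± 0.13 (edgeR adjusted p = 1.03e-10) and −1.10 ± 0.11 (edgeR adjusted p = 7.78e-07). Notum, which inactivates Wnt ligands, fell by −2.75 ± 0.18 (edgeR adjusted p = 1.26e-08) and −1.54 ± 0.16 (edgeR adjusted p = 1.22e-06). The genes that rose in KD1 were Cd44, also listed above, and the cyclin gene Ccnd1, which had 13603 to 18170 counts in WT and 37217 to 41888 in KD1. Ccnd1 rose in KD1 by 1.11 ± 0.05 (edgeR adjusted p = 2.16e-10). In KD2 it was at −0.18 ± 0.05 (edgeR adjusted p = 0.00469), and with scaling by library size only at −0.07 (edgeR adjusted p = 0.198). Genes on the other strand overlap 38.1% of the exon bases of Notum and 23.4% of those of Ccnd1, and whether reads were counted by strand is not given.

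For the other chromosomes, genes within 2 Mb gave the local background. Near Jup, 102 tested genes had a median log2 fold change of 0.22 in KD1 and 0.04 in KD2 against WT. Near Ctnnb1 the medians of 42 genes were −0.19 and −0.20, near Ctnnd1 those of 22 genes were 0.07 and −0.09, and near Epcam those of 17 genes were −0.12 and 0.14. Near Cdh2 only 5 genes were tested, with medians of −0.08 and −0.05. Near Ctnna1 (chr18:35118859-35254779, plus strand), 61 genes had a median of 0.40 in KD2, where Ctnna1 itself had 0.38, and of −0.02 in KD1. The part of this shared shift in the Ctnna1 value was not tested.

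The genes most like Cdh1 and Cdh2 over the 9 cultures were sought among 11612 genes by the root-mean-square difference of log2 CPM centred on each gene's mean. Nearest to Cdh1 were Myo5b at 0.0421, Tyms at 0.0474 and G6pdx at 0.0527. Myo5b, a motor of recycling endosomes, had 1773 to 2520 counts in WT, 3138 to 3432 in KD1 and 1158 to 1810 in KD2. By Pearson correlation in place of the difference, 1 of the 3 nearest genes, Tyms, was shared. Nearest to Cdh2 were Ptx3 at 0.415, Samd5 at 0.476 and Gzmf at 0.546, each with 0 or 1 counts in every KD1 culture. With a prior count of 2, their KD1 values are set largely by that prior. The distances and their order are therefore no measure of likeness in KD1. By Pearson correlation the 3 nearest to Cdh2 were Lurap1l, Gzmf and Col12a1, so that only Gzmf was shared. Ptx3 had 159 to 205 counts in WT and 609 to 887 in KD2. The line means of Cdh2 itself spanned 8.80 log2 units, with a prior count of 2.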

How the data were processed

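Deposited raw read counts per gene, from RNA-seq of 9 cultures, were used; the authors made these counts with fastp, HISAT2 on GRCm38 and featureCounts of Subread, whose versions, strand setting and treatment of reads with several matches are not given in the sources used here. Genes were filtered with filterByExpr, scaled by TMM and fitted in 1 model of the 3 lines with edgeR 4.0.16 in R 4.3.3 (quasi-likelihood F test, Benjamini-Hochberg adjustment over 15253 genes). Alternatives used DESeq2 1.42.0 and the settings under the dependence on processing. Python 3.11.15, pandas 2.3.3, NumPy 2.4.6, SciPy 1.17.1 and matplotlib 3.10.9 made the summaries. The code was tested on simulated data. Gene positions and exon lengths came from GENCODE annotation of GRCm38, release M21, which differs from the release the paper names, and 53569 genes were matched to it by symbol. Total counts were 19231428 to 28360592 per culture.

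The genes and lists were chosen with earlier results of these data known. Named from each list were up to 2 genes per direction and comparison against WT, those with the largest change among called genes with a mean log2 CPM over 1. Shares were compared by exact permutation tests, and genes with few counts in a line by exact intervals of the ratio of summed counts.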

Additional observations from a re-analysis of the deposited data

Results flagged for a closer look

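The difference between the edited lines was tested as KD2 against KD1 for the 8 of the 10 genes with enough counts. It passed the test and exceeded 2-fold for 4 of them, beside 14.7% of all genes called higher and 8.58% called lower, with log2 differences of 9.10 for Cdh2, −3.03 for Cdh3, −1.07 for Cdh1 and −1.06 for Jup. Groups of 3 cultures were given no outlier test. By the chi-square values above, KD2 replicate 3 and WT replicate 1 stood apart from the other cultures of their lines.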

How the results depend on the processing

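Of 405 values of the 8 tested genes under other settings or with a culture left out, 393 kept their direction and side of the adjusted p limit, 1 moved above that limit (Cdh3), 11 moved below it (Ctnna1, Ctnnb1 and Ctnnd1) and 0 reversed, with a largest shift of 0.25 log2 units. With at least 10 counts required in every culture, Cdh2 is not tested, by construction. The 10 genes then gave 0 called lower in KD1, 0 called higher in KD2, and 0 called higher in KD2 against KD1, each by the loss of Cdh2 alone. Of the 12296 genes tested under that filter, those called higher and lower were 766 and 553 in KD1, 1173 and 525 in KD2, and 1181 and 733 in KD2 against KD1. A test against 2-fold (glmTreat) called 942 and 726 genes in KD1 and 1395 and 595 in KD2, and 1 of the 10 lower in KD2 against KD1, beside 6.18% of all genes. That is a stricter rule by construction. With 1 count in any culture required, Cdh5 is tested, and 1 of the 10 was called higher in KD1, 2 in KD2 and 2 in KD2 against KD1, beside 6.02%, 9.96% and 9.91% of 31678 genes. With library size only, 1 was called lower in KD2 against KD1, beside 7.33% of all genes, and the cause was not tested.

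Leaving out each culture in turn gave 0 to 1 of the 10 called higher in KD1, 1 to 2 in KD2 and 1 to 2 in KD2 against KD1, where the filter for smaller groups lets Cdh5 be tested. All genes called higher were 9.06% to 9.91%, 14.4% to 15.3% and 14.8% to 15.4%. Those of the 10 that rose in KD2 were 3 to 5, the last without KD2 replicate 3, where Cdh5 was tested and Ctnnd1 passed at 0.24 (edgeR adjusted p = 0.000136), beside 37.2% of all genes. In KD1, 6 to 8 rose, the last without KD2 replicate 3, beside 31.7% of all genes. In KD2 against KD1, 2 to 3 rose, beside 31.6% to 36.7% of all genes.

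Cultures with the same replicate number in different lines were no more alike than others: the mean correlation of their departures from the line mean was 0.00716, and 0 of 9 cultures correlated best with their own number in both other lines. They share only a number. With replicate number as a block, 1424 genes were called higher and 1136 lower in KD1, 2206 and 1021 in KD2, and 2241 and 1311 in KD2 against KD1.

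Depth limits Cdh5 and Cdh11, whose counts reach at most 24 and give wide intervals. The 2 edited lines are 1 clone each.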
